A study of Mus musculus with 12 samples.

Results

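Iron uptake, storage and release were followed through 10 genes: Tfrc, Slc11a2, Steap3, Fth1, Ftl1, Ncoa4, Slc40a1, Cp, Hmox1 and Ireb2. They were chosen by name, as the rows whose Ensembl identifiers map to these mouse symbols, and they make up 10 of the 48709 gene identifiers in the tables. All 10 passed the filter on low counts that left 14408 genes for testing. RNA sequencing was done on mouse embryonic fibroblasts (MEFs, connective tissue cells grown from embryos) of strain C57BL/6. WT cells and TAZKo cells were each grown in normoxia or exposed to hypoxia for 24 hours, which gave 4 groups of 3 samples. All of them were cultured in medium with 10% serum. TAZKo names cells without tafazzin, an enzyme that remodels cardiolipin in mitochondria, and the WT cells are described as isogenic. How the knockout was made, whether it is 1 clone, the oxygen level, and whether the 3 samples of a group came from separate cultures are not given in the sources used here. P-values therefore measure the spread between these samples, which may be technical.

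Iron enters most cells bound to transferrin, which the transferrin receptor carries into endosomes, where iron is reduced and pumped into the cytosol. Spare iron is stored inside ferritin, a shell of heavy and light chains, and leaves the cell through ferroportin. When cytosolic iron is low, the iron regulatory proteins bind short RNA hairpins called iron-responsive elements. Binding in a 3′ UTR protects the transferrin receptor mRNA from decay, and binding in a 5′ UTR blocks translation of ferritin and ferroportin. Transcript counts register changes of the first kind and not blocked translation. Hypoxia-inducible factors are known to drive transcription of the transferrin receptor, haem oxygenase and ceruloplasmin genes.

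Taz, the gene for tafazzin (ENSMUSG00000009995, chrX:74281912-74290151), was not lower in the libraries labelled TAZKo. Its level was 38.0, 33.3 and 32.7 CPM in normoxic samples 1 to 3 labelled WT. CPM is a gene's share of the counts of its library on a common scale, corrected by TMM, a trimmed mean of gene ratios between libraries. Taz was at 45.8, 39.8 and 41.0 CPM in those labelled TAZKo. The log2 difference was 0.29 (SE 0.0786, adjusted p = 0.0139) in normoxia and 0.43 (SE 0.0805, adjusted p = 0.00112) in hypoxia, higher in the libraries labelled TAZKo. Every genotype difference below is therefore a difference between libraries labelled TAZKo and libraries labelled WT. These adjusted p-values, and all others given, come from the edgeR quasi-likelihood test with Benjamini-Hochberg adjustment over the 14408 genes, and the threshold is 0.05.

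Total counts ran from 21039451 to 31204510 per sample. WT normoxia sample 1 stood apart from the other samples on the third principal component, and results whose call it changes are given with and without it. The sequencing lane recorded with the deposited tables was 4 for every sample numbered 1 and 5 for every sample numbered 3. For samples numbered 2 it was 4 in the normoxic groups and 5 in the hypoxic groups, so lane and condition cannot be told apart for that number. Of 8 fibroblast markers, 7 were tested, and their summed level was 9862 to 12966 CPM over all samples. Single markers moved in opposite directions under that sum, beside the iron gene changes. Col1a1 was 2.46-fold lower in normoxia and 2.62-fold lower in hypoxia in libraries labelled TAZKo, while Pdgfrb was 2.10-fold and 1.90-fold higher and S100a4 2.36-fold and 2.35-fold higher. After hypoxia, Vim rose 2.30-fold and S100a4 2.28-fold in WT, and Pdgfrb fell 2.05-fold. The part of such differences between the cultures in the iron gene results was not tested. Within that list Thy1 was at 2 to 8 counts in every sample and Col1a2 at 1.51 to 5.93 CPM, so these 2 fibroblast markers were near absent or low. In bulk RNA, fewer cells of a type and less RNA per cell cannot be told apart.

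Iron-responsive elements were looked for first, because they are the best known regulatory sequence of iron genes. The search pattern was C, then 5 bases, then CAGTGN, then 5 bases that pair with the first 5, on the transcript strand, in GENCODE M21 transcripts of GRCm38. It was found in 4 of the 10 genes. The 7 matches are shown as 30-base stretches, read 5′ to 3′ on the transcript, with the loop in capitals, since where an element lies in the transcript decides how it acts.
Tfrc, 3′ UTR, chr16:32631219-32631248, plus strand: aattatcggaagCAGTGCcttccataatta
Tfrc, 3′ UTR, chr16:32631598-32631627, plus strand: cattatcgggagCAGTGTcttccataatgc
Tfrc, 3′ UTR, chr16:32631663-32631692, plus strand: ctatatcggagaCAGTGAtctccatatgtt
Tfrc, 3′ UTR, chr16:32631710-32631739, plus strand: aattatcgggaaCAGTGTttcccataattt
Fth1, 5′ UTR, chr19:9982732-9982761, plus strand: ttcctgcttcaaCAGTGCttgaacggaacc
Ftl1, 5′ UTR, chr7:45459778-45459807, minus strand: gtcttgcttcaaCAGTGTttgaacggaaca
Slc40a1, 5′ UTR, chr1:45925464-45925493, minus strand: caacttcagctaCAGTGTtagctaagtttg

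Tfrc thus carried 4 matches after its coding part, and Fth1, Ftl1 and Slc40a1 carried 1 each ahead of theirs. Among all 22500 coding genes, 175 (0.778%) held such a match outside the coding part. The other 6 genes held no match, which says only that this pattern of 5 unbroken pairs is not in their annotated transcripts. The members with a match did not move in 1 direction: after hypoxia Tfrc rose and Fth1 fell, while Ftl1 and Slc40a1 did not pass the test. The Ftl1 counts are low and uncertain, as given below.

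**Figure D1:**
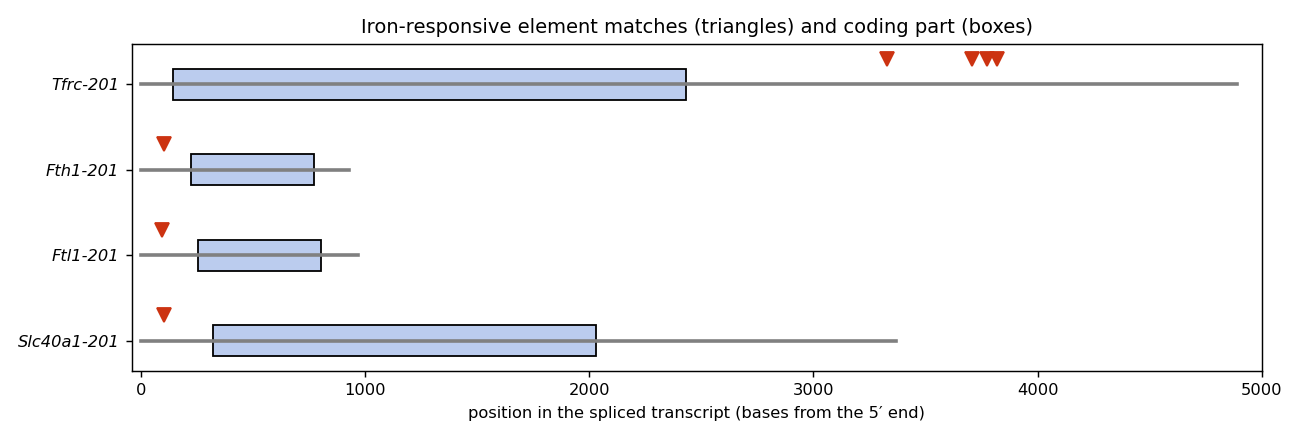
Position of the iron-responsive element matches (triangles) along the spliced transcripts of the 4 genes that hold one, in bases from the 5′ end, with the coding part as a box. The 4 matches of Tfrc lie in its 3′ UTR, and those of Fth1, Ftl1 and Slc40a1 lie in the 5′ UTR.

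Tfrc encodes the transferrin receptor (ENSMUSG00000022797, chr16:32608920-32632794 on GRCm38). It had the largest response to hypoxia of the 10 genes in the fit of all samples. Without WT normoxia sample 1, Hmox1 rose more in WT (log2 difference 1.63, beside 1.56 for Tfrc). In normoxia Tfrc stood at 126, 224 and 213 CPM in libraries labelled WT and at 145, 180 and 154 CPM in those labelled TAZKo. After hypoxia it stood at 561, 679 and 693 CPM and at 636, 573 and 609 CPM. All 6 hypoxic samples lay above all 6 normoxic samples, while the genotypes overlapped in both conditions. The group means were 187 ± 53.7 (SD, n = 3), 160 ± 18.4, 645 ± 72.4 and 606 ± 31.4 CPM in the order given. Tfrc rose 3.44-fold in WT (log2 difference 1.78, SE 0.170, adjusted p = 1.48e-06) and 3.79-fold in TAZKo (1.92, SE 0.171, adjusted p = 1.23e-06). These 2 responses were not shown to differ: the interaction, TAZKo response minus WT response, was 0.14 on the log2 scale (SE 0.235, adjusted p = 0.82).

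The Tfrc genotype difference in normoxia depended on 1 library and on the filter. It was -0.23 on the log2 scale (SE 0.167, adjusted p = 0.331) with all samples, and -0.45 (adjusted p = 0.00193) without WT normoxia sample 1, whose 126 CPM was the lowest Tfrc level of all 12. With no filter on low counts it was -0.26 and passed (adjusted p = 0.00467). Without that sample the rise in WT was 1.56 on the log2 scale (adjusted p = 8.72e-09) and the interaction was 0.36 (adjusted p = 0.148). In hypoxia the genotypes differed by -0.09 (SE 0.165, adjusted p = 0.72).

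The sequence ahead of the Tfrc start is shown because its hypoxia response was the largest in the fit of all samples. RefSeq on GRCm38.p6 gives 2 overlapping windows for Tfrc, each from 250 bases before to 50 bases after a start, and each held a hypoxia response core (ACGTG or GCGTG, either strand) 3 times. At least 1 core was in 43.8% of all 32851 windows of 300 bases, and 3 or more cores were in 8.93%. The stretch printed is 148 bases of the upstream window, read on the plus strand, and the capitals mark 2 of the cores, both on the minus strand, while the third core crosses the start and is not shown.
Tfrc, upstream, chr16:32608746-32608893, plus strand: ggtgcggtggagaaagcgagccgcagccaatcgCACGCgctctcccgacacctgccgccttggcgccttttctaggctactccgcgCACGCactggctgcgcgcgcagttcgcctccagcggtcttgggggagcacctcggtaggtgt

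The antioxidant response core TGACNNNGC, searched on both strands, was absent from both Tfrc windows and present in 12.4% of all windows. A match describes letters and not a bound factor. Windows were at hand for Tfrc, Fth1, Ftl1, Ireb2, Ncoa4, Steap3 and Cp. Cp, which also rose in hypoxia, held no hypoxia core in either of its windows, and Fth1, which fell, held 1 in 1 of its windows and 0 in the other. Ncoa4, which had no hypoxia call, held 3 hypoxia cores and 1 antioxidant core in 1 window, 2 hypoxia cores in another and 0 in the third.

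Slc11a2 encodes DMT1, the transporter that moves ferrous iron from the endosome into the cytosol (ENSMUSG00000023030, chr15:100387898-100425072). Its level was 109, 119 and 115 CPM in normoxia in libraries labelled WT, and 129, 126 and 123 CPM in those labelled TAZKo. After hypoxia it was 102, 103 and 108 CPM and 119, 126 and 119 CPM. The libraries labelled TAZKo lay above those labelled WT in both conditions with no overlap. The difference passed the test in hypoxia (log2 difference 0.21, SE 0.0556, adjusted p = 0.00966) and not in normoxia (0.14, SE 0.0554, adjusted p = 0.0784). Without TAZKo hypoxia sample 2 the hypoxic difference was 0.18 (adjusted p = 0.0551).

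The Slc11a2 response to hypoxia was small and depended on the fit. In WT it was -0.13 on the log2 scale (SE 0.0556, adjusted p = 0.0715), with hypoxic samples just below normoxic ones. With each sample left out in turn it ran from -0.21 to -0.15 and passed the test in 11 of 12 fits. Its value with all samples lay outside that range. Leaving out TAZKo normoxia sample 1, which is not in this comparison, gave -0.18 and shifted the median of all genes by -0.054. The shift was also -0.054 with WT normoxia sample 1 as the TMM reference library, where the value was -0.18 (adjusted p = 0.0137). Leaving out a sample could thus also change the scaling, and these passes are not separate evidence. Without WT normoxia sample 1 the response was -0.16 (adjusted p = 0.0139). It also passed with DESeq2 (-0.14, adjusted p = 0.0331), with 3 other scalings and with no filter on low counts. In TAZKo it was -0.05 (SE 0.0554, adjusted p = 0.484), and -0.15 with library size alone, where it passed (adjusted p = 0.0377). Gm5475, annotated on the opposite strand, overlaps 6.3% of the Slc11a2 exon bases, and the library kit does not mark strand.

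Steap3 encodes the endosomal reductase that turns ferric into ferrous iron for DMT1 (ENSMUSG00000026389, chr1:120190757-120272705). It was scarce, at 14 to 40 counts in a library. Its normoxic level was 1.19, 0.877 and 0.543 CPM in WT and 0.926, 0.607 and 0.525 CPM in TAZKo. Its hypoxic level was 1.25, 0.987 and 0.764 CPM in WT and 1.51, 1.38 and 0.906 CPM in TAZKo. All 4 groups overlapped. Its rise in TAZKo passed the test (log2 difference 0.89, SE 0.319, adjusted p = 0.0374) and in WT did not (0.20, SE 0.329, adjusted p = 0.643), with an interaction of 0.69 (SE 0.461, adjusted p = 0.515). The call in TAZKo was kept in 6 of the 12 fits that left out 1 sample. It was lost without WT normoxia sample 2, TAZKo normoxia samples 2 and 3, WT hypoxia sample 2, and TAZKo hypoxia samples 1 and 2, with log2 differences from 0.67 to 0.86 in these fits, and also with library size alone (0.79, adjusted p = 0.0576). Without WT normoxia sample 1 the WT response was 0.49 (adjusted p = 0.266) and the interaction 0.40 (adjusted p = 0.75).

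Fth1 encodes the ferritin heavy chain, which oxidises iron as it enters the shell (ENSMUSG00000024661, chr19:9980598-9985098). It was the most abundant of the 10 transcripts per length of annotated exon, at 217 to 376 CPM per kilobase of its 3469 exon bases in the group means. In normoxia Fth1 stood at 1417, 1253 and 1247 CPM in WT and at 1025, 989 and 987 CPM in TAZKo. In hypoxia it stood at 903, 865 and 821 CPM in WT and at 763, 755 and 742 CPM in TAZKo. The groups are given from high to low, and neighbours did not overlap. Fth1 fell 1.51-fold after hypoxia in WT (log2 difference -0.60, SE 0.0599, adjusted p = 2.29e-06) and 1.33-fold in TAZKo (-0.41, SE 0.0598, adjusted p = 0.000101). The interaction was 0.19 (SE 0.0845, adjusted p = 0.298).

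Libraries labelled TAZKo held less Fth1 than those labelled WT in both conditions. The difference was 1.31-fold in normoxia (log2 difference -0.38, SE 0.0598, adjusted p = 0.00028) and 1.15-fold in hypoxia (-0.20, SE 0.0598, adjusted p = 0.0222). The hypoxic difference lost its call without WT hypoxia sample 1 (-0.17, adjusted p = 0.0518), without TAZKo hypoxia sample 3 (-0.19, adjusted p = 0.0568) and with no filter on low counts (-0.18, adjusted p = 0.0645). In normoxia the call was kept in all 12 fits that left out 1 sample.

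The opposite movement of storage and uptake transcripts shows in the ratio of Fth1 to Tfrc, both per length of all annotated exons (3469 and 6185 bases). It was 20.1, 9.97 and 10.5 in WT normoxia and 12.6, 9.77 and 11.4 in TAZKo normoxia. After hypoxia it was 2.87, 2.27 and 2.11 in WT, beside 2.14, 2.35 and 2.17 in TAZKo. Every hypoxic sample was below every normoxic sample, and the genotypes overlapped. The ratio is a description, since both genes are tested above.

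Ftl1 encodes the ferritin light chain, which helps the iron core form (ENSMUSG00000050708, chr7:45457944-45459884). Its values are uncertain because 58.4% of the 50-base words of its transcripts also occur in 17 other annotated genes, among them ferritin pseudogenes. Gm22133, on the same strand, and Gm10252, on the opposite strand, overlap 34.6% of its exon bases, and the library kit does not mark strand. Only 72 to 137 counts were assigned to Ftl1 in a library. In normoxia the level was 3.18, 3.38 and 3.88 CPM in WT and 4.12, 3.34 and 2.81 CPM in TAZKo. In hypoxia it was 3.75, 3.99 and 4.99 CPM in WT and 3.50, 3.84 and 4.46 CPM in TAZKo. The groups overlapped, and no comparison passed the test: the hypoxia differences were 0.29 (SE 0.166, adjusted p = 0.161) in WT and 0.22 (SE 0.165, adjusted p = 0.305) in TAZKo. The pseudogene rows Ftl2-ps and Ftl1-ps1 held at most 3 counts in a library and were not tested. How the authors' counting treated reads that match several genes is not given in the sources used here.

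Ncoa4 encodes the receptor that delivers ferritin to lysosomes, where its iron is freed (ENSMUSG00000056234, chr14:32159865-32179855). It shares 17.9% of its 50-base words with Gm6768, which held 52 to 122 counts beside 100 to 176 for Ncoa4 itself. Ncoa4 stood at 4.33 to 6.09 CPM over the 12 samples with all groups overlapping. Its hypoxia differences were 0.14 (SE 0.125, adjusted p = 0.383) in WT and 0.14 (SE 0.123, adjusted p = 0.405) in TAZKo. The genotype differences were -0.03 in normoxia (adjusted p = 0.876) and -0.03 in hypoxia (adjusted p = 0.861).

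**Figure D2:**
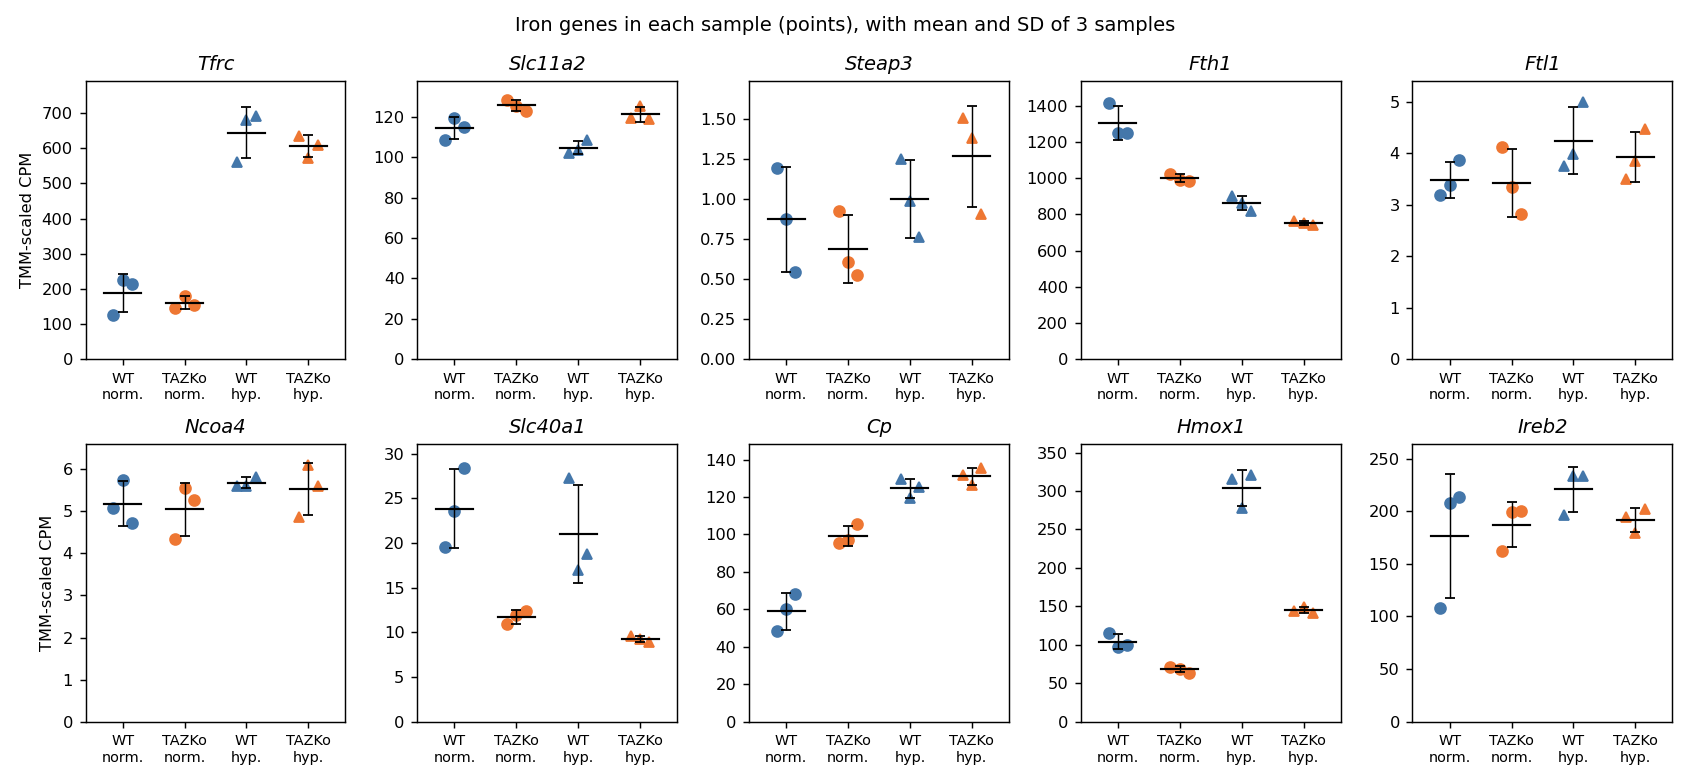
Level of each iron gene in TMM-scaled CPM (vertical axes from 0) in the 12 samples, with circles for normoxia, triangles for hypoxia, blue for libraries labelled WT and orange for those labelled TAZKo. Horizontal lines are means and bars are SD over 3 samples. Hypoxic Tfrc (561 to 693 CPM) lies above normoxic Tfrc (126 to 224 CPM), and Slc40a1 and Hmox1 are lower in libraries labelled TAZKo in both conditions.

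Slc40a1 encodes ferroportin, the only known cellular iron exporter (ENSMUSG00000025993, chr1:45908068-45926523). It was lower in libraries labelled TAZKo, at 10.9, 11.96 and 12.4 CPM against 19.6, 23.6 and 28.4 CPM in normoxia. In hypoxia it was 9.57, 9.27 and 8.89 CPM against 27.3, 17.0 and 18.7 CPM. The labelled genotypes did not overlap in either condition, and the spread was wider in the libraries labelled WT. The difference was 2.03-fold in normoxia (log2 difference -1.02, SE 0.163, adjusted p = 0.000355) and 2.26-fold in hypoxia (-1.18, SE 0.168, adjusted p = 0.00013). Both calls were kept in all 12 fits that left out 1 sample, over -1.14 to -0.91 in normoxia and -1.31 to -0.96 in hypoxia.

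Hypoxia itself gave smaller differences in Slc40a1. They were -0.19 on the log2 scale in WT (SE 0.158, adjusted p = 0.333), where conditions overlapped, and -0.35 in TAZKo (SE 0.172, adjusted p = 0.117), where they did not. Without WT hypoxia sample 1, the highest hypoxic sample at 27.3 CPM, the values were -0.47 (adjusted p = 0.00916) in WT and -0.38 (adjusted p = 0.0258) in TAZKo. That sample was the only WT hypoxic sample in lane 4, where the WT difference was 0.34, beside -0.67 in lane 5. In TAZKo the differences were -0.26 in lane 4 and -0.45 in lane 5. Without WT normoxia sample 1 the WT value was -0.32 (adjusted p = 0.0805). Both passed with no filter on low counts (-0.27, adjusted p = 0.0344, and -0.38, adjusted p = 0.00495). The TAZKo value passed with the 6 samples of that comparison alone (-0.35, adjusted p = 0.00301) and with library size alone (-0.45, adjusted p = 0.0396). The interaction was -0.16 (SE 0.234, adjusted p = 0.79).

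Cp encodes ceruloplasmin, a copper-containing ferroxidase that loads iron leaving the cell onto transferrin (ENSMUSG00000003617, chr3:19957054-20009145). In normoxia it was 48.5, 60.1 and 68.3 CPM in libraries labelled WT and 95.3, 97.0 and 105 CPM in those labelled TAZKo. After hypoxia it was 130, 119 and 125 CPM and 132, 126 and 135 CPM. WT normoxia was the lowest group and TAZKo normoxia the next, without overlap, and the hypoxic groups overlapped. Cp was 1.68-fold higher in normoxic libraries labelled TAZKo (log2 difference 0.75, SE 0.0974, adjusted p = 6.05e-05), and the difference in hypoxia was 0.07 (SE 0.0956, adjusted p = 0.608). It rose 2.11-fold after hypoxia in WT (1.08, SE 0.0978, adjusted p = 8.97e-07) and 1.32-fold in TAZKo (0.40, SE 0.0958, adjusted p = 0.00398).

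The Cp response to hypoxia was smaller in TAZKo than in WT by 0.68 on the log2 scale, as an interaction of -0.68 (SE 0.136, adjusted p = 0.0189). Leaving out 1 sample at a time kept that call in 6 of 12 fits, with values from -0.77 to -0.56. It was lost without TAZKo normoxia samples 2 (-0.67, adjusted p = 0.0619) and 3 (-0.61, adjusted p = 0.0761), WT hypoxia sample 3 (-0.65, adjusted p = 0.0681), and TAZKo hypoxia samples 1 (-0.65, adjusted p = 0.0659), 2 (-0.63, adjusted p = 0.0757) and 3 (-0.68, adjusted p = 0.0524). Without WT normoxia sample 1, which had the lowest Cp level, it was -0.56 (adjusted p = 0.00286).

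Hmox1 encodes haem oxygenase 1, which opens the haem ring and frees its iron (ENSMUSG00000005413, chr8:75093621-75100589). In normoxia it was 115, 97.0 and 99.3 CPM in libraries labelled WT and 71.3, 69.1 and 64.0 CPM in those labelled TAZKo. After hypoxia it was 315, 277 and 320 CPM and 144, 150 and 142 CPM. The groups were ordered TAZKo normoxia, WT normoxia, TAZKo hypoxia and WT hypoxia from low to high, and no neighbours overlapped. Hmox1 rose 2.93-fold after hypoxia in WT (log2 difference 1.55, SE 0.0786, adjusted p = 2.89e-09) and 2.13-fold in TAZKo (1.09, SE 0.0785, adjusted p = 1.55e-07).

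Libraries labelled TAZKo held 1.52-fold less Hmox1 in normoxia (log2 difference -0.61, SE 0.0783, adjusted p = 5.63e-05) and 2.10-fold less in hypoxia (-1.07, SE 0.0774, adjusted p = 3.06e-07). Both calls were kept in all 12 fits that left out 1 sample. The interaction was -0.46 (SE 0.109, adjusted p = 0.0447), close to the threshold. It passed in 2 of the 12 fits that left out 1 sample, those without WT normoxia sample 1 (-0.54, adjusted p = 0.00343) or WT hypoxia sample 2, and over all 12 it ran from -0.54 to -0.39 with adjusted p from 0.00343 to 0.147. It also missed the threshold with DESeq2 size factors (-0.44, adjusted p = 0.0706), upper quartile scaling (-0.42, adjusted p = 0.0748) and library size alone (-0.45, adjusted p = 0.0571). The direction was the same in every one of these fits.

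Macrophages, which recycle haem iron, express much Hmox1 and Slc40a1, so a macrophage list was measured beside them. The summed level of its 6 markers, 4 of them tested, was 10.9 to 11.4 CPM in WT normoxia and 11.8 to 12.3 CPM in TAZKo normoxia. After hypoxia it was 19.3 to 24.3 CPM in WT, beside 16.5 to 18.7 CPM in TAZKo. The defining markers Ptprc and Adgre1 were at 0 counts in every library, apart from 1 count of Ptprc in a TAZKo hypoxia library. The normoxic sums were higher in libraries labelled TAZKo and the hypoxic sums lower, and sums were higher after hypoxia, as Hmox1 was. The members of the list went different ways. Csf1r, the receptor for macrophage growth factor, was lower in libraries labelled TAZKo in normoxia (log2 difference -0.88, adjusted p = 0.00779) and hypoxia (-1.21, adjusted p = 0.000126), and rose after hypoxia by 1.47 in WT and 1.14 in TAZKo. Lyz2, a lysozyme gene, was higher in libraries labelled TAZKo by 2.45 and 2.95, and fell after hypoxia. Levels were low, at 0.742 CPM on average over all samples for Lyz2 and 2.57 CPM for Csf1r. Cd68 and Cd14 rose after hypoxia in both, and their genotype differences did not pass. The part of these differences in the Hmox1 and Slc40a1 results was not tested.

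Ireb2 encodes iron regulatory protein 2, which binds the elements printed above and is degraded when iron is plentiful (ENSMUSG00000032293, chr9:54863789-54912530). In normoxia its mRNA was 108, 208 and 213 CPM in WT and 162, 199 and 200 CPM in TAZKo. In hypoxia it was 196, 233 and 233 CPM in WT and 194, 179 and 202 CPM in TAZKo. The groups overlapped throughout, and WT normoxia sample 1 was the lowest sample. No Ireb2 comparison passed the test in the fit of all samples with the filter and without a block. The hypoxia difference in WT was 0.32 (SE 0.189, adjusted p = 0.172). With the sample number as a block, although the numbers paired only samples 1 and 2 in that comparison, it was 0.35 and passed (adjusted p = 0.0465). With no filter on low counts it was 0.24 and passed (adjusted p = 0.00844). Without WT normoxia sample 1 it was 0.07 (adjusted p = 0.564). The normoxic genotype difference turned from 0.08 (SE 0.189, adjusted p = 0.785) to -0.17 (adjusted p = 0.174) without that sample. Aco1, the other iron regulatory protein, was chosen for mention after its values were seen, and its hypoxia differences were 0.01 (adjusted p = 0.882) in WT and 0.00 (adjusted p = 0.977) in TAZKo.

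The counts over the 10 genes were read against all genes. After hypoxia in WT, 4 of 10 were called (Tfrc, Hmox1 and Cp higher, Fth1 lower), beside 51% of all genes tested, 26% higher and 25% lower. After hypoxia in TAZKo, 5 of 10 were called (the same 4 in the same directions, and Steap3 higher), beside 43.8%, 22.2% higher and 21.6% lower. Between labelled genotypes, 4 of 10 were called in normoxia (Cp higher, and Fth1, Slc40a1 and Hmox1 lower), beside 30.4%, 15.6% higher and 14.9% lower. They were 4 of 10 in hypoxia (Slc11a2 higher, and Fth1, Slc40a1 and Hmox1 lower), beside 32.8%, 15.8% higher and 16.9% lower. In the interaction, 2 of 10 were called (Hmox1 and Cp, both lower), beside 2.43%, 0.722% higher and 1.71% lower. The first 4 shares are near those of all genes, so the number of calls does not mark the group out in them. The comparisons share samples: each genotype difference uses the same libraries as the hypoxia responses.

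The median log2 difference of the 10 genes was 0.24 after hypoxia in WT and 0.18 in TAZKo, beside 0.01 and -0.01 over all genes tested. It was -0.14 between labelled genotypes in normoxia and -0.10 in hypoxia, beside 0.01 and -0.01. Groups did not overlap for 5 members in normoxia between genotypes (42.8% of all genes), 4 in hypoxia between genotypes (50% of all genes), 5 after hypoxia in WT (54.6%) and 5 after hypoxia in TAZKo (61.1%). Within each lane, every one of the 17 called differences between groups had the same direction as over all samples, in 34 of 34 values, although a lane holds as few as 1 sample of a group. These differences were called on the same samples, so a shared direction was largely set in advance and is no test of lane.

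**Figure D3:**
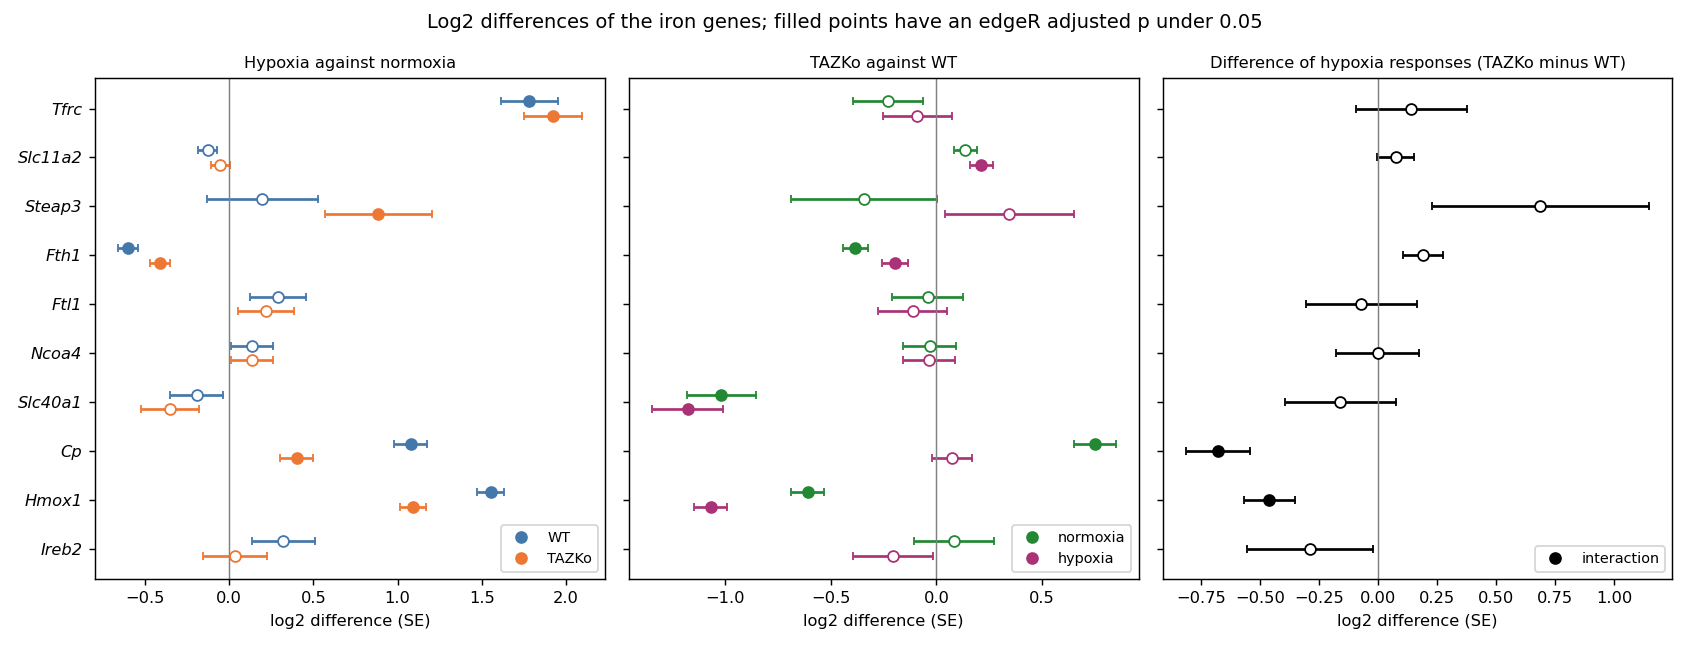
Log2 differences of the 10 iron genes with their SE (bars), for hypoxia against normoxia in each labelled genotype, libraries labelled TAZKo against WT in each condition, and the difference of hypoxia responses. Filled points have an edgeR adjusted p under 0.05: Tfrc lies at 1.78 and 1.92 in the first panel, Slc40a1 at -1.02 and -1.18 in the second, and Cp and Hmox1 at -0.68 and -0.46 in the third.

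Genes with the most similar profile over the 12 samples were found for Tfrc, Slc40a1 and Hmox1, by the smallest root mean square difference of centred log2 CPM among 9438 genes with at least 10 CPM on average. For Tfrc they were Plod2 (0.151) and Pnrc1 (0.184). Plod2, a collagen lysyl hydroxylase gene, went from 117 and 105 CPM in normoxia to 462 and 465 CPM in hypoxia in libraries labelled WT and TAZKo. For Slc40a1 they were Net1 (0.147) and Adamts4 (0.176). Adamts4, which encodes an aggrecan-cleaving protease, was 43.3 and 20.8 CPM in normoxia and 33.5 and 16.2 CPM in hypoxia, lower in libraries labelled TAZKo. For Hmox1 the nearest was Mvd (0.143). Mvd, of the cholesterol synthesis pathway, was 46.2, 31.5, 132 and 54.3 CPM in WT normoxia, TAZKo normoxia, WT hypoxia and TAZKo hypoxia.

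A wider list of 62 other iron and haem genes was counted by role, and 53 of them were tested. After hypoxia, 11 were higher and 22 lower in WT (median log2 difference -0.23), and 8 were higher and 17 lower in TAZKo (median -0.05). Of all genes tested, 26% were higher and 25% lower in WT (median 0.01), and 22.2% higher and 21.6% lower in TAZKo (median -0.01), and the subgroup counts below stand beside these shares. The largest subgroup was mitochondrial iron import and iron-sulfur cluster assembly, with 18 genes tested. In it, 2 were higher and 12 lower after hypoxia in WT, and 1 was higher and 9 lower in TAZKo, with a median of -0.33 in each, beside all-gene shares of 25% and 21.6% lower. Fdxr, the ferredoxin reductase that supplies electrons to cluster assembly, fell most, from 96.3, 69.7 and 80.6 CPM to 29.4, 20.2 and 21.4 CPM in WT. Its log2 difference was -1.80 (SE 0.134, adjusted p = 1.30e-07) in WT and -1.21 (SE 0.133, adjusted p = 8.09e-06) in TAZKo.

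Of 16 haem turnover genes, 3 were higher and 7 lower after hypoxia in WT, and 2 were higher and 7 lower in TAZKo (median -0.01 and -0.05), beside all-gene shares of 26% and 22.2% higher and 25% and 21.6% lower. The haem synthesis enzymes did not move together. Alas1, the first enzyme of the pathway, rose by 0.88 on the log2 scale in WT (SE 0.0678, adjusted p = 1.82e-07) and 0.62 in TAZKo (SE 0.0672, adjusted p = 7.41e-06). Alad, the next enzyme, was 364, 286 and 285 CPM in WT normoxia and 132, 106 and 102 CPM in WT hypoxia. It fell by 1.46 on the log2 scale in WT (SE 0.105, adjusted p = 9.82e-08) and by 1.17 in TAZKo (SE 0.104, adjusted p = 1.26e-06). Cpox, a later enzyme, rose by 0.75 in WT (SE 0.104, adjusted p = 4.25e-05).

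Of 9 uptake genes tested, 4 were higher and 1 lower after hypoxia in WT, and 3 were higher and 1 lower in TAZKo (median 0.15 and 0.18), beside the same all-gene shares. Mcoln1, which encodes a lysosomal cation channel that passes iron, rose by 0.55 in WT (SE 0.0719, adjusted p = 2.74e-05) and 0.68 in TAZKo (SE 0.0721, adjusted p = 5.90e-06). Of 7 regulators tested, 1 was higher and 2 lower in WT and 0 were called in TAZKo. Of the 2 storage and chaperone genes tested, 0 were called in WT and 1 was higher in TAZKo. The 1 ferroxidase gene tested was higher in both.

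Between labelled genotypes, 9 of the 53 genes were higher and 17 lower in libraries labelled TAZKo in normoxia (median -0.07), and 8 were higher and 12 lower in hypoxia (median -0.09). Of all genes tested, 15.6% were higher and 14.9% lower in normoxia (median 0.01), and 15.8% higher and 16.9% lower in hypoxia (median -0.01), so the number higher was near that of all genes. Uptake genes went both ways, with 4 higher and 4 lower in normoxia and 4 higher and 3 lower in hypoxia. Among the metalloreductases of the Steap family, Steap1 was higher in libraries labelled TAZKo by 0.58 in normoxia (SE 0.0670, adjusted p = 2.19e-05) and by 0.33 in hypoxia (SE 0.0665, adjusted p = 0.00171). Steap2 was higher by 0.58 in normoxia (SE 0.0959, adjusted p = 0.000466) and by 0.28 in hypoxia (SE 0.0956, adjusted p = 0.0376). Steap4 was lower, at 8.16, 9.88 and 7.54 CPM against 13.004, 15.9 and 18.6 CPM in normoxia. Its log2 difference was -0.90 (SE 0.143, adjusted p = 0.000326) in normoxia and -0.70 (SE 0.145, adjusted p = 0.00217) in hypoxia.

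Bmp6, a growth factor that induces the iron hormone hepcidin in liver, was lower in normoxic libraries labelled TAZKo by a log2 difference of -0.87 (SE 0.135, adjusted p = 0.000266). In hypoxia, Nfs1, the cysteine desulfurase of cluster assembly, was higher by 0.42 (SE 0.0652, adjusted p = 0.000284), and by 0.21 in normoxia (adjusted p = 0.0195). Por, cytochrome P450 reductase, was lower at -0.51 in hypoxia (SE 0.0825, adjusted p = 0.000374) and -0.33 in normoxia (adjusted p = 0.00819). With the sample number as a block, Alas1 became a call in the normoxic genotype difference (0.17, adjusted p = 0.0436). In the WT hypoxia response, 6 genes of the wider list became calls with it, 3 of them lower and 3 higher.

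**Figure D4:**
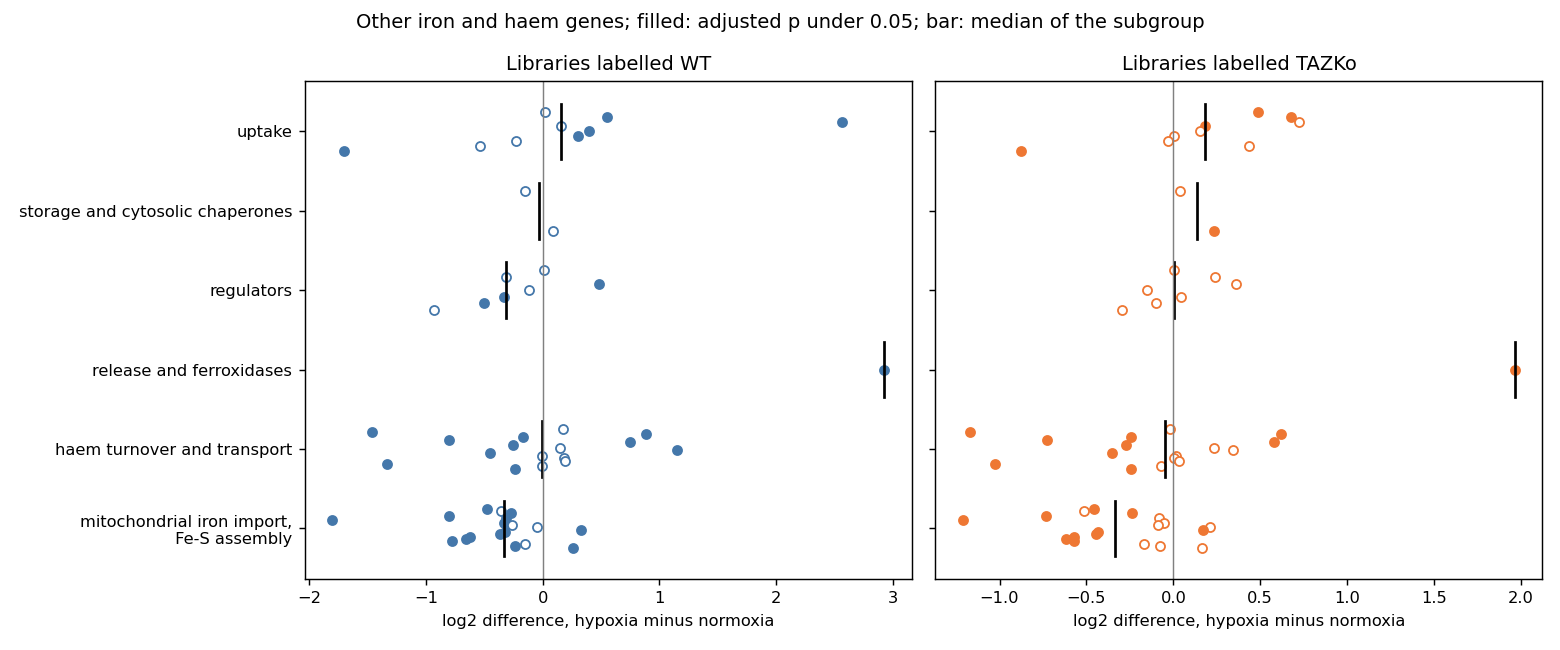
Log2 difference, hypoxia minus normoxia, of the 53 other iron and haem genes tested, by role, in libraries labelled WT (left) and TAZKo (right). Each point is a gene, filled points have an adjusted p under 0.05, and bars are subgroup medians, which are -0.33 for mitochondrial import and iron-sulfur assembly in both panels.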

How the data were processed

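The authors deposited 1 table of whole-number read counts per Ensembl gene for each of 12 samples, with no normalization recorded. The libraries were made with a TruSeq RNA v2 kit, per the labels' protocols, and the build is mm10, per the submitters' processing notes. The aligner, the counting program and the annotation are not given in the sources used here. Of 48709 identifiers, 48349 matched symbols and coordinates in GENCODE M21 on GRCm38.

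Counts were filtered (filterByExpr), scaled by TMM and fitted with edgeR 4.0.16 (R 4.3.3), quasi-likelihood, over all 12 samples with 1 coefficient per group. The SE is the log2 difference divided by the square root of F. The procedure was also run on simulated counts, drawn with the same spread for every gene and no effect of lane or sample number. That run cannot check the procedure against such effects. DESeq2 1.42.0, other scalings and filters, a replicate block, lane, and leaving out samples were alternatives, and a TMM reference of WT normoxia sample 1 was chosen after seeing the data. Hjv and Fdx2 were matched as Hfe2 and Fdx1l.

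Same-numbered samples deviated together in normoxia between genotypes (correlations 0.354, 0.149 and 0.228), each above its correlations with other numbers. Between conditions in WT the correlations were 0.368, 0.204 and 0.152. The last, for samples numbered 3, was below the highest with another number (0.180), so the numbers of the titles did not pair those samples. Number and lane were partly tied, so these correlations cannot tell a pairing from a shared lane.

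The named genes are the 10 members, Taz, the 2 wider-list genes with the largest rise and fall per comparison (called, at least 5 CPM on average), and the 2 most similar profiles for 3 members, of which 1 is not reported here. Aco1 and single markers were named after their values were seen. Members and lists were chosen with earlier results of these data known.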

Additional observations from a re-analysis of the deposited data

Results flagged for a closer look

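In the fit of all samples, the interaction term of the edgeR quasi-likelihood test called 2 of the 10 members, Hmox1 and Cp. It also called 1 of the 53 other iron and haem genes tested, Neo1. Of all 14408 genes tested it called 350 (2.43%). The Hmox1 call was kept in 2 of the 12 fits that left out 1 sample and the Cp call in 6. Neo1 was not followed in those fits. For Hmox1 the interaction was -0.46 on the log2 scale (adjusted p = 0.0447), from group means of 104, 68.1, 304 and 145 CPM in WT normoxia, TAZKo normoxia, WT hypoxia and TAZKo hypoxia. For Cp it was -0.68 (adjusted p = 0.0189), from means of 59.0, 99.3, 125 and 131 CPM. For Neo1, a receptor that binds the BMP co-receptor hemojuvelin, it was 0.40 (SE 0.0804, adjusted p = 0.0182). Neo1 was 261, 265 and 278 CPM in WT normoxia, 207, 201 and 202 CPM in TAZKo normoxia, 203, 182 and 183 CPM in WT hypoxia and 188, 196 and 185 CPM in TAZKo hypoxia, so only WT normoxia stood above the rest.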

How the results depend on the processing

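Over 1080 values of the 10 genes under 10 other settings and 12 fits that left out 1 sample, 985 kept direction and call, 28 gained a call, 32 lost one and 35 changed sign. The number of members called after hypoxia in WT was 4, 7 with no filter and 5 without WT normoxia sample 1, where Slc11a2 was added. Slc11a2 also gained this call with DESeq2, DESeq2 size factors, upper quartile scaling, library size alone, and WT normoxia sample 1 as TMM reference. Among the 12 fits with 1 sample removed it was called in 11, so 4 was not the usual count. Slc40a1 was called as well when WT hypoxia sample 1 was removed. In the normoxic genotype difference the number of members called was 4, and 5 without WT normoxia sample 1. In the interaction it was 2, and 1 with DESeq2 size factors, upper quartile scaling, library size alone, a mean of at least 5 CPM, or WT normoxia sample 1 as TMM reference. Leaving out samples gave 0 to 2. The interaction called 350 genes in all, 574 with DESeq2, 727 with no filter, 639 with the replicate block and 174 (without TAZKo normoxia sample 2) to 711 (without WT hypoxia sample 1) in fits that left out a sample. At an unadjusted p under 0.05 it held 2273.

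Sign changes were all in values without a call. The Ncoa4 interaction (-0.0016) was 0.013 with DESeq2 size factors, 0.034 with upper quartile scaling, 0.0097 with library size alone, 0.013 with DESeq2, 0.049 with no filter, 0.015 with at least 5 CPM and 0.022 with the other TMM reference. The Ireb2 hypoxia difference in TAZKo (0.04) was -0.058 with library size alone and -0.026 with lane as a covariate. Leaving out samples, the normoxic genotype differences ran from -0.22 to 0.062 for Ftl1, -0.14 to 0.032 for Ncoa4 and -0.17 to 0.21 for Ireb2, and the hypoxic ones from -0.22 to 0.022 for Ftl1 and -0.12 to 0.035 for Ncoa4. The hypoxia differences ran from -0.13 to 0.49 for Steap3 in WT and -0.093 to 0.054 for Ireb2 in TAZKo. The interactions ran from -0.075 to 0.10 for Ncoa4, -0.18 to 0.10 for Ftl1 and -0.28 to 0.089 for Slc40a1. The cause of these changes was not tested.

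Library size alone shifted the median of all genes by -0.11 after hypoxia in WT and changed the split from 3750 higher and 3605 lower to 2966 and 4817; in TAZKo it changed from 3198 and 3111 to 2470 and 4393. The interaction split of 104 higher and 246 lower became 140 and 204 with upper quartile scaling, 152 and 217 with the other TMM reference, 240 and 334 with DESeq2, 400 and 327 with no filter and 272 and 367 with the replicate block. The directions of the called members were the same under each scaling. The replicate block changed 1 member's call, Ireb2 in the WT hypoxia response, and in the wider list the Fdxr interaction became a call (0.60, adjusted p = 0.0186, against adjusted p = 0.13 without the block). The numbers did not pair the samples between genotypes in hypoxia (correlations 0.055, -0.024 and 0.12) or between conditions in TAZKo. Steap3 and Ftl1 could not be fitted with a mean of at least 5 CPM. Depth limits Steap3, Ftl1 and Ncoa4, and shared sequence limits the last 2.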
